A study of Mus musculus with 5 samples.

Results

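The mitotic kinesins described here are *Kif11*, *Kif15*, *Kif20a*, *Kif20b*, *Kif23*, *Kif4*, *Kif22*, *Kif2c*, *Kif18a*, and *Kif18b*. They were chosen by symbol, through the Ensembl identifiers of the count table, and all 10 were found among the 20224 genes of the table. Bulk RNA-seq was done on sympathetic neurons of E14.5 mouse embryos whose mothers were not diabetic. The control group had 2 libraries (replicates 5 and 6) and the *Hif1aCKO* group 3 (replicates 3, 4, and 5), and values per library are given in this order throughout. Control embryos were Hif1a loxP/+ and *Hif1aCKO* embryos were Hif1a loxP/loxP, and both carried Isl1Cre, the tdTomatoAi14 reporter, and the Prph-eGFP transgene. Each library was made from 100 cells sorted as positive for eGFP and tdTomato. The series text also describes controls without the Isl1-Cre allele, but tdTomato from the Ai14 allele depends on Cre. The Cre is a knock-in at *Isl1* and acts in every cell type that has expressed *Isl1*. Control neurons also carry Cre with a floxed *Hif1a* allele. The comparison of *Hif1aCKO* with control neurons therefore sets homozygous against heterozygous deletion of *Hif1a* in developing sympathetic neurons.

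Kinesins are motor proteins that use ATP to move along microtubules or to shorten them. Most members of the superfamily carry cargo in axons and cilia, whereas the mitotic kinesins build the spindle, move chromosomes, and divide the cell. Their mRNAs are made mainly in the G2 and M phases, and at this age sympathetic neuroblasts still divide while others leave the cell cycle. In bulk samples, more dividing cells cannot be told apart from more kinesin mRNA in each dividing cell.

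Total counts ranged from 8254211 to 9700887 per library. The deleted gene, *Hif1a*, had 2086 and 1584 normalized counts in the control libraries, against 2747, 1758, and 2135 in the *Hif1aCKO* libraries. The floxed segment is exon 2 alone and counts are summed over the gene, so these values do not test the deletion. All 10 sympathetic neuron markers examined, among them *Gata3*, *Dbh*, and *Prph*, were detected in every library. Their summed level was 6610 and 8066 CPM in the control libraries, against 6007, 5859, and 5741 CPM in the *Hif1aCKO* libraries, so it was lower in *Hif1aCKO* neurons with no overlap. At an unadjusted p-value under 0.05, 4 of the 10 were lower, namely *Th* (log2 fold change -1.37), *Isl1* (-0.67), *Slc18a2* (-0.58), and *Dbh* (-0.32), and 1 was higher, *Hand2* (0.59). Of all genes, 3.85% were lower and 3.83% higher at this threshold. The other cell types were scored on those of their markers that the table lists. The summed level of 4 Schwann cell precursor markers was 3.50 to 6.31 CPM in control libraries, 5.37 and 5.90 in *Hif1aCKO* replicates 4 and 5, and 131 in *Hif1aCKO* replicate 3, where *Fabp7* had 926 counts and *Sox10* had 8. The 4 mesenchymal markers in the table, *Col1a1* among them, summed to at most 2.78 CPM in any library, and the 2 endothelial markers to at most 4.35. Motor neuron markers (*Chat* and *Slc5a7*) summed to 8.5 and 12 CPM in control and to 1.5, 11, and 1.4 CPM in *Hif1aCKO* libraries, and the erythroid marker *Alas2* to at most 3.54 CPM. The 3 sensory neuron markers, *Neurod1* among them, summed to 55.5 and 96.8 CPM in control and 71.3 to 103 CPM in *Hif1aCKO* libraries. The 5 chromaffin cell markers summed to 1843 and 1995 CPM in control and 1893 to 2515 CPM in *Hif1aCKO* libraries. Most of this sum came from *Cartpt* (6731 to 18491 counts), *Chgb* (724 to 9375), and *Chga* (2161 to 2967). *Pnmt* had 3 to 55 counts and *Htr3a* 0 to 15. The chromaffin cell markers did not move one way (log2 fold change 1.04 for *Cartpt*, -1.69 for *Chgb*, and -1.91 for *Pnmt*). The part of these markers in the kinesin results was not tested. Control replicate 5 held 3974 *Xist* counts and *Hif1aCKO* replicate 3 held 4597, whereas the other libraries held at most 3.

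All 10 mitotic kinesins had a higher mean in *Hif1aCKO* than in control neurons, with log2 fold changes from 0.17 for *Kif11* to 1.04 for *Kif23* and a median of 0.55. Of all 15032 genes tested, 51.3% had a log2 fold change above 0 and the median was 0.01. For 7 members (*Kif23*, *Kif20a*, *Kif20b*, *Kif22*, *Kif2c*, *Kif15*, and *Kif18b*) the lowest *Hif1aCKO* library exceeded the higher control, a pattern found in 12.9% of all genes tested. Summed over the members, control neurons had 1257 ± 94.0 CPM (SD, n = 2), and *Hif1aCKO* neurons had 1767 ± 230 CPM (SD, n = 3). The ratio of these means was 1.41. With 1 library left out it ranged from 1.30 without *Hif1aCKO* replicate 4 to 1.48 without control replicate 5, and it was 1.44 without *Hif1aCKO* replicate 3, the library with the most *Fabp7* counts, and 1.33 without control replicate 6.

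The difference between genotypes was tested by the quasi-likelihood method of edgeR on TMM-scaled counts, with Benjamini-Hochberg adjustment over all 15032 genes. Calls required an adjusted p-value below 0.05, a mean of 50 or more normalized counts, and a log2 fold change beyond 0.3 in either direction. This test called 0 of the 10 members and 0% of all genes. The lowest adjusted p-value among the members was 0.586, for *Kif23* and *Kif20b*, by edgeR's quasi-likelihood test. Before adjustment, at a p-value under 0.05, 5 members passed as higher in *Hif1aCKO* neurons (*Kif23*, *Kif20b*, *Kif22*, *Kif2c*, and *Kif15*), beside 3.83% of all genes, and 0 members passed as lower, beside 3.85%. Without control replicate 6, 2 members passed as higher, *Kif23* and *Kif20b*, beside 2.3% of genes. The number was 5 without control replicate 5 (2.77% of genes), 6 without *Hif1aCKO* replicate 3 (5.35%), 5 without *Hif1aCKO* replicate 4 (2.98%), and 5 without *Hif1aCKO* replicate 5 (3.06%). DESeq2, the tool of the study, called *Kif23* and *Kif20b*, both higher, where it called 0.194% of genes with an adjusted p-value as higher. The likelihood ratio test of edgeR called *Kif23* alone, where 0.0998% of genes were called as higher, and limma-voom called 0 members. *Kif23* and *Kif20b* are also in the study's own list, which was chosen on these libraries, so their direction here is not independent evidence. The paper also measured *Kif23*, but not *Kif20b*, by qRT-PCR in microdissected sympathetic chains. In that assay it reports higher *Kif23* in *Hif1aCKO* than in control embryos. For any 1 member, the smallest p-value that exact permutation of these 5 libraries allows is 0.1.

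**Figure D1:**
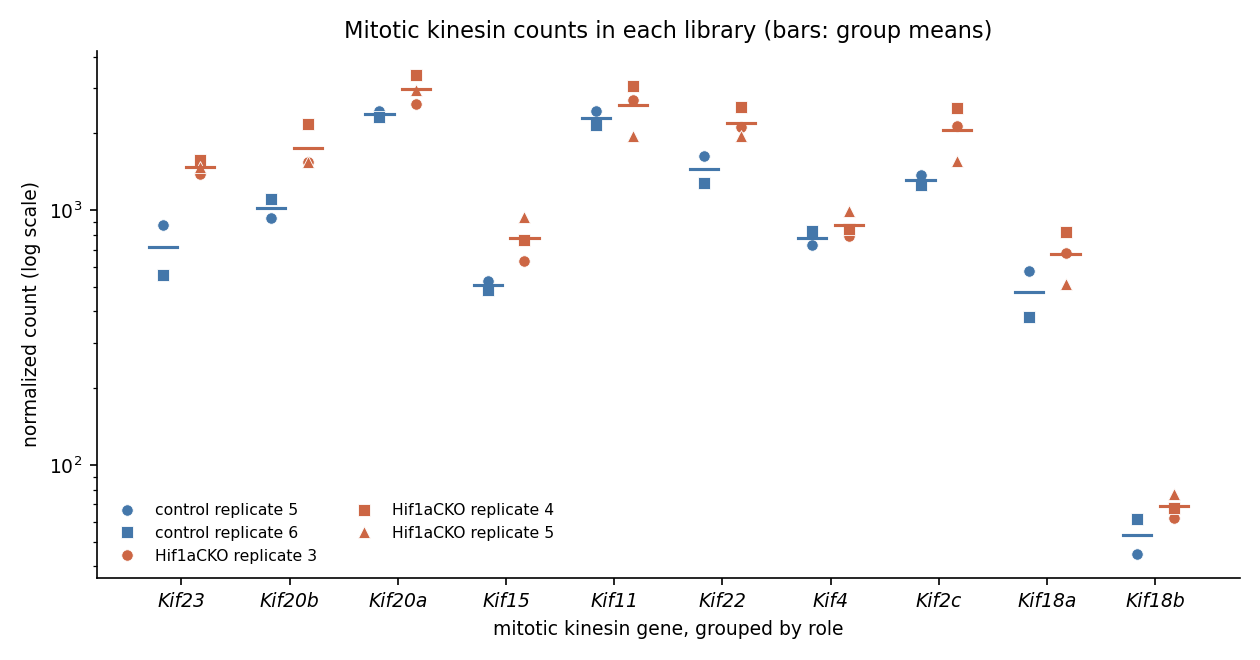
Normalized counts (log scale) of each mitotic kinesin in each library, with control libraries in blue, *Hif1aCKO* libraries in red, and bars at the group means. *Kif23* shows the widest gap between groups, whereas the groups of *Kif11*, *Kif4*, and *Kif18a* overlap.

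The central spindle kinesins act after chromosome separation, when overlapping microtubules between the separating chromosomes mark the place of division. *Kif23* (ENSMUSG00000032254, chromosome 9, 61915905 to 61946774 on GRCm38) encodes the motor subunit of centralspindlin, which bundles these microtubules and is needed for cytokinesis. Its normalized counts were 874 and 558 in the control libraries, against 1380, 1568, and 1476 in the *Hif1aCKO* libraries. The lowest *Hif1aCKO* library lay well above both controls, and the *Hif1aCKO* libraries were closer to each other than the controls were. The log2 fold change was 1.04 (standard error 0.22, 95% interval 0.55 to 1.54), a 2.06-fold difference, with an unadjusted p-value of 0.00124 that ranked 31st among all genes. With any 1 library left out it was between 0.75 and 1.40, lowest without control replicate 6 and highest without control replicate 5.

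*Kif20b* (ENSMUSG00000024795, chromosome 19, 34922361 to 34975745) encodes a motor of the midbody, the bridge cut in the last step of division, and is also known from neuronal polarity. It had 934 and 1101 normalized counts in the control libraries, against 1543, 2170, and 1547 in the *Hif1aCKO* libraries. Replicate 4 stood above the other *Hif1aCKO* libraries, and all 3 stood above both controls. Its log2 fold change was 0.78 (standard error 0.20, 95% interval 0.32 to 1.25, adjusted p = 0.586 in the same edgeR test), whereas DESeq2 gave an adjusted p-value of 0.0407. DESeq2's adjusted p-value for *Kif23* was 0.00184.

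*Kif20a* (ENSMUSG00000003779, chromosome 18, 34624613 to 34633277) encodes the motor that brings the Aurora B complex to the central spindle. Normalized counts were 2454 and 2327 in the control libraries, against 2606, 3395, and 2955 in the *Hif1aCKO* libraries. The groups did not overlap, but replicate 3 was only just above the controls. The log2 fold change of 0.32 (standard error 0.15) had a 95% interval from -0.03 to 0.67. *Kif20a* shares 29.3% of its exonic bases with *Cdc23* on the opposite strand, and counting was done with default parameters, which do not use strand. Reads over the shared bases may therefore be left out of the counts of both genes. For *Cdc23*, control neurons had 3846 ± 348 normalized counts (SD, n = 2) and *Hif1aCKO* neurons 3531 ± 126 (SD, n = 3), so its mean difference was in the other direction.

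Among the kinesins that hold the spindle bipolar, *Kif15* differed between genotypes more than *Kif11* did in the fitted values, although the difference between the genes was not tested. *Kif11* (ENSMUSG00000012443, chromosome 19, 37376403 to 37421859) encodes the main motor that pushes the spindle poles apart. It had 2444 and 2149 normalized counts in the control libraries, against 2702, 3079, and 1958 in the *Hif1aCKO* libraries. *Hif1aCKO* replicate 5 was the lowest of all libraries and replicate 4 the highest, so the groups overlapped. Its log2 fold change was 0.17 (standard error 0.20, 95% interval -0.29 to 0.63), and without *Hif1aCKO* replicate 4 it was 0.02.

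*Kif15* (ENSMUSG00000036768, chromosome 9, 122951046 to 123018733) encodes a motor that can hold the poles apart when *Kif11* is inhibited. Its normalized counts were 527 and 485 in the control libraries, against 630, 760, and 936 in the *Hif1aCKO* libraries. Replicate 5, the lowest library for *Kif11*, was the highest for *Kif15*. The log2 fold change was 0.62 (standard error 0.21, 95% interval 0.13 to 1.10), with adjusted p = 0.621 in the same edgeR test.

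The chromokinesins bind chromosome arms. *Kif22* (ENSMUSG00000030677, chromosome 7, 127027729 to 127042471) encodes a DNA-binding motor that pushes chromosome arms toward the spindle equator. It had 1625 and 1275 normalized counts in the control libraries, against 2126, 2532, and 1945 in the *Hif1aCKO* libraries. Every *Hif1aCKO* library was above both controls, and the log2 fold change was 0.60 (standard error 0.18, 95% interval 0.19 to 1.01, adjusted p = 0.598 in the same edgeR test).

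*Kif4* (ENSMUSG00000034311, chromosome X, 100625737 to 100727214) encodes a motor of chromosome condensation and of the central spindle. Normalized counts were 727 and 826 in the control libraries, against 792, 845, and 991 in the *Hif1aCKO* libraries. Replicate 3 lay between the controls, so the groups overlapped, and the log2 fold change was 0.17 (standard error 0.18, 95% interval -0.23 to 0.58). *Kif4* is X-linked, and both libraries with *Xist* counts were the lowest of their own group. With the *Xist* split as a term in the fit, the log2 fold change was 0.14 (standard error 0.19). *Kif4* shares 15.1% of its exonic bases with *Pdzd11* on the opposite strand, for which the log2 fold change was 0.06 (standard error 0.18).

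The kinesins that shorten microtubules differed in level as well as in fold change. *Kif2c* (ENSMUSG00000028678, chromosome 4, 117159639 to 117182639) encodes MCAK, a depolymerase of the centromere that releases wrongly attached microtubules. It had 1375 and 1250 normalized counts in the control libraries, against 2146, 2504, and 1553 in the *Hif1aCKO* libraries. Replicate 5 was the nearest to the controls but above both, and the log2 fold change was 0.66 (standard error 0.21, 95% interval 0.17 to 1.14, adjusted p = 0.618 in the same edgeR test).

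*Kif18a* (ENSMUSG00000027115, chromosome 2, 109280738 to 109341747) encodes a motor that damps chromosome movements at the spindle equator. Its normalized counts were 575 and 382 in the control libraries, against 680, 822, and 511 in the *Hif1aCKO* libraries, so that replicate 5 lay between the controls. The log2 fold change was 0.49 (standard error 0.27, 95% interval -0.12 to 1.10), and it ranged from 0.22 without control replicate 6 to 0.81 without control replicate 5. *Kif18b* (ENSMUSG00000051378, chromosome 11, 102905529 to 102925124), which encodes a regulator of astral microtubule length, had the lowest counts, 43 and 66 reads in the control libraries, against 58, 68, and 79 in the *Hif1aCKO* libraries. Its groups overlapped in reads but not in normalized counts, where control replicate 6 had 61.2 and *Hif1aCKO* replicate 3 had 62.2. The log2 fold change of 0.38 (standard error 0.45) had a 95% interval from -0.65 to 1.41, so a difference of this size was not detectable at these counts.

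**Figure D2:**
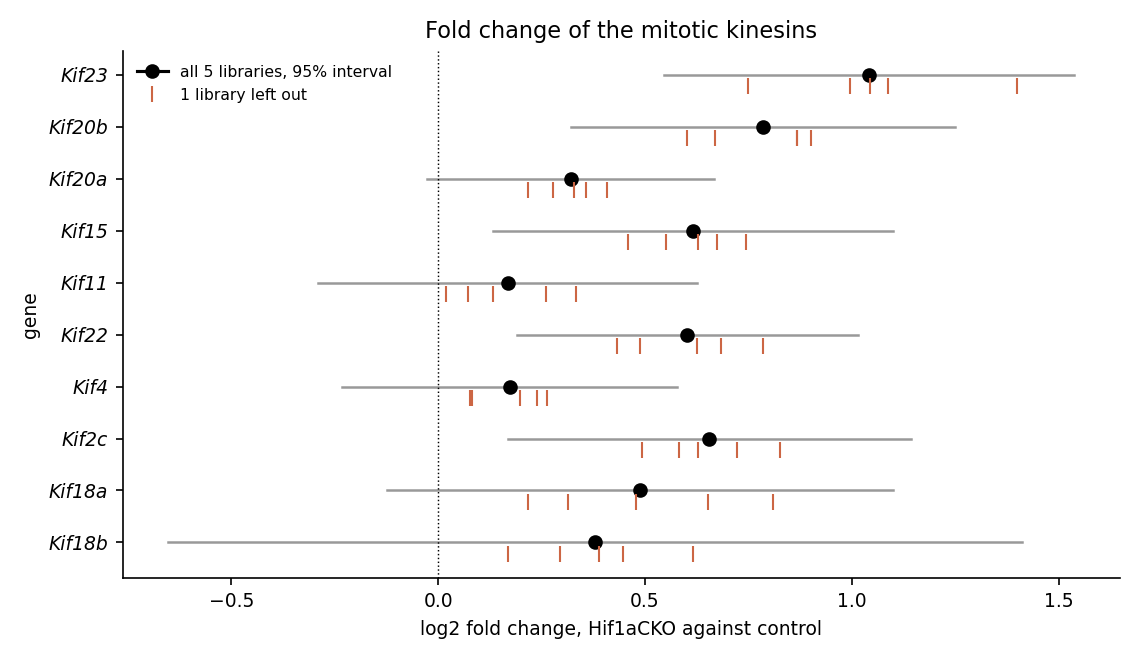
Log2 fold change of *Hif1aCKO* against control for each mitotic kinesin, with its 95% interval (black point and grey line) and the fold change with 1 library left out (red ticks). All ticks lie above 0, and the interval lies above 0 for *Kif23*, *Kif20b*, *Kif15*, *Kif22*, and *Kif2c*.

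Levels were compared between the genes in TPM, that is, counts divided by exonic length and scaled to the same total in each library. *Kif20a* was the highest member, with a control level of 193 ± 7.37 TPM (SD, n = 2) and a *Hif1aCKO* level of 243 ± 33.6 TPM (SD, n = 3). *Kif18b* was the lowest, at 5.20 ± 1.14 (SD, n = 2) and 6.80 ± 0.64 (SD, n = 3) TPM. The order of the mean over all libraries was *Kif20a*, *Kif2c*, *Kif22*, *Kif11*, *Kif20b*, *Kif4*, *Kif23*, *Kif15*, *Kif18a*, and *Kif18b*. Of the 9 pairs of neighbours, 5 kept this order in all 5 libraries. *Kif2c* and *Kif22*, *Kif22* and *Kif11*, and *Kif15* and *Kif18a* exchanged places in at least 1 library and did not differ beyond their spread. The order of *Kif4* and *Kif23* followed the genotype in every library, which was not tested. This order may depend on the exonic length used, because 15.1% of the exonic bases of *Kif4* are shared with *Pdzd11*. *Kif23* was below *Kif4* in control neurons, at 31.8 ± 9.92 against 49.4 ± 4.44 TPM (SD, n = 2), and above it in *Hif1aCKO* neurons, at 65.8 ± 4.52 against 56.0 ± 5.76 (SD, n = 3).

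**Figure D3:**
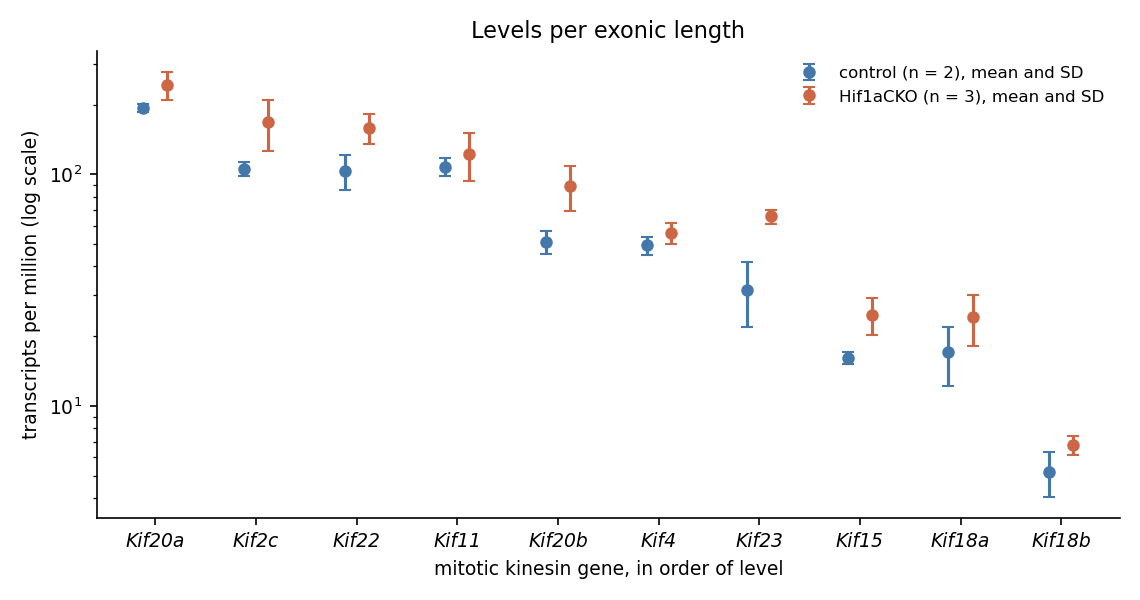
TPM (log scale) of each mitotic kinesin as mean and SD of the control (n = 2, blue) and *Hif1aCKO* (n = 3, red) libraries, in order of level. *Kif20a* is highest and *Kif18b* lowest in both groups.

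The members followed the libraries in a similar way. On the log2 scale, the median deviation of the members from their means over the 5 libraries was -0.25 and -0.38 in the control libraries, against 0.15, 0.40, and 0.13 in the *Hif1aCKO* libraries. *Hif1aCKO* replicate 4 was the highest library for 7 of the 10 members, and *Hif1aCKO* replicate 5 for *Kif15*, *Kif4*, and *Kif18b*. Control replicate 6 was the lowest for 6 members, control replicate 5 for 3, and *Hif1aCKO* replicate 5 for *Kif11*. Within the libraries with *Xist* counts (*Hif1aCKO* replicate 3 against control replicate 5), the log2 ratio was above 0 for all 10 members, with a median of 0.32. In the other libraries (the mean of *Hif1aCKO* replicates 4 and 5 against control replicate 6) it was also above 0 for all 10 members, with a median of 0.73. *Hif1aCKO* replicate 5 alone was below control replicate 6 for *Kif11* (1958 against 2149 normalized counts). In the fit with the *Xist* split as a term, 5 members had an unadjusted p-value under 0.05 as higher, beside 2.66% of genes. The median log2 fold change of the members without *Hif1aCKO* replicate 4 was 0.44.

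By root mean square difference over the 5 libraries, *Kif22* (0.10 on the log2 scale) and *Kif20a* (0.12) were nearest to the mean profile of the members, and *Kif23* (0.32) was farthest. Outside the members, among 10832 genes with a mean normalized count of at least 50, the nearest profiles included those of *Cip2a* (difference 0.02), *Smim11*, *Tcf12*, and *Pwwp2a* (0.05). These are descriptions over 5 libraries that share the same group difference.

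Many genes of the G2 and M phases carry a cell cycle genes homology region (CHR) near the transcript start, where the DREAM and B-MYB-MuvB complexes bind, often next to a CCAAT box bound by NF-Y. Promoter windows from RefSeq on GRCm38.p6, from 250 bases before to 50 after the transcript start, matched 9 of the 10 members, all but *Kif20a*. The windows were searched on both strands for the CHR core TTTGAA, for CCAAT, and for ACGTG, a core to which HIF-1 can bind. None of the matches in the members' windows overlapped another. The printed stretches hold the 150 bases before the start and the first 30 transcribed bases, and positions count the first transcribed base as 0. They are shown for *Kif23* and *Kif20b*, which had the largest fold changes, for *Kif22*, whose profile was nearest to the members' mean, for *Kif11*, which had the smallest fold change, and for *Kif18a*, whose window has no CHR core. Capitals mark TTTGAA and CCAAT or their reverse complements, TTCAAA and ATTGG, and the stretch of *Kif18a* has none. The stretches lie at chr9:61946770-61946949 on the minus strand, chr19:34922208-34922387 on the plus strand, chr7:127042391-127042570 on the minus strand, chr19:37376232-37376411 on the plus strand, and chr2:109280588-109280767 on the plus strand.
Kif23: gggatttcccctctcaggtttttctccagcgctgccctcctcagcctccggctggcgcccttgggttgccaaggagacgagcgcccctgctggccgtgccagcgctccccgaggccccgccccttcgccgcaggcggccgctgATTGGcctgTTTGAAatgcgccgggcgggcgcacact
Kif20b: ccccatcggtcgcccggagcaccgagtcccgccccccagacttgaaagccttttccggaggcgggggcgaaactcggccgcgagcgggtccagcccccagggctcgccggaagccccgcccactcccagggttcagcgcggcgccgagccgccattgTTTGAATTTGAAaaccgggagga
Kif22: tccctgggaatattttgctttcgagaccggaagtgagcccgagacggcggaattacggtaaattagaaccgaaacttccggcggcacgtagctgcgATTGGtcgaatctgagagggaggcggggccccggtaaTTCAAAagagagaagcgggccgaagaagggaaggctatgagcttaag
Kif11: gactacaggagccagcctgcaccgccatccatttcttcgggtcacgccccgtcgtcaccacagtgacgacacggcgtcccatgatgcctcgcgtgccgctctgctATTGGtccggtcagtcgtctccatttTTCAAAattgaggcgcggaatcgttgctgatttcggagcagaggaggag
Kif18a: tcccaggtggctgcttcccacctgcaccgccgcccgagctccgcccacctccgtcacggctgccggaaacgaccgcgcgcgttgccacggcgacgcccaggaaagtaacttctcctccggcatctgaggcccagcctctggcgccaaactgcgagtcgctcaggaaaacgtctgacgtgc

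The CHR core was found in 8 of the 9 windows, against 17.9% of all 32851 RefSeq promoter windows, and CCAAT in 5, against 37.4%. Both were found in 5 windows (*Kif11*, *Kif18b*, *Kif22*, *Kif23*, and *Kif4*), against 6.95% of all windows. *Kif23* has ATTGG from -7 to -3 and TTTGAA from 2 to 7, and *Kif20b* has a tandem of TTTGAA from 7 to 18. *Kif11* and *Kif15* have TTCAAA from -19 to -14, and *Kif22* from -17 to -12. In the *Kif2c* window the match lies at -103, but the RefSeq start used for this window is 3867 bases from the 5′ end of the gene in GENCODE. The core ACGTG was found in 2 windows, *Kif18a* and *Kif22*, against 19.6% of all windows. Members with the CHR core had log2 fold changes over the whole range of the members, from *Kif11* to *Kif23*. These matches are descriptions of the sequence, and binding was not measured.

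**Figure D4:**
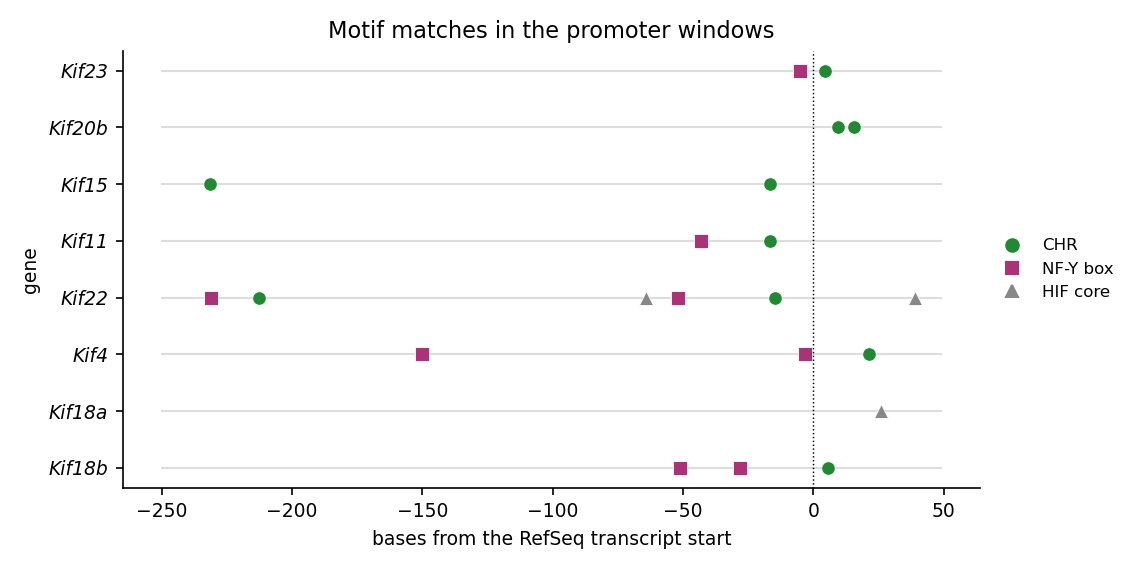
Positions of the CHR core (green), the NF-Y box (purple), and the HIF core (grey) in the promoter windows of 8 mitotic kinesins, in bases from the RefSeq transcript start. *Kif2c* is left out because its RefSeq start is far from the GENCODE one, and a CHR core lies between -19 and 24 in all of these windows but that of *Kif18a*.

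The partners of the mitotic kinesins were mostly higher too. Of 11 central spindle and cytokinesis partners, 10 had a log2 fold change above 0, with a median of 0.48, and 6 had an unadjusted p-value under 0.05, all higher. Among them were *Plk1*, a mitotic kinase (log2 fold change 0.93, standard error 0.16), and *Ect2*, the exchange factor that starts the contractile ring (0.66, standard error 0.15). Of 12 genes of spindle assembly and microtubule plus ends, 10 were above 0, with a median of 0.49 and 4 at an unadjusted p-value under 0.05. They included *Gtse1* (0.90) and *Nusap1* (0.99), which encode microtubule-binding proteins of the spindle. All 7 genes that act on chromosome arms were above 0, with a median of 0.36 and 4 at an unadjusted p-value under 0.05, among them the condensin subunit *Smc4* (0.52) and *Mki67* (0.78), which coats mitotic chromosomes. Of 5 other mitotic kinesins tested, 4 were above 0 and 1, the kinetochore motor *Cenpe* (0.84, standard error 0.16), had an unadjusted p-value under 0.05. For *Kif14*, a cytokinesis motor, the log2 fold change was 0.66 (standard error 0.37). The quasi-likelihood test of edgeR called 0 genes of these lists, and DESeq2 called 3, 1, 2, and 1 in the order given, where it called 0.388% of all genes in either direction. At an unadjusted p-value under 0.05, 3.83% of all genes were higher. Several of these genes are in the study's own list and are not independent evidence. By qRT-PCR in microdissected sympathetic chains, the paper reports higher *Mki67* in *Hif1aCKO* embryos but no effect of the deletion on *Plk1*.

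The medians of S phase genes, of transcription regulators, and of non-mitotic kinesins lay closer to that of all genes. Of the 14 S phase genes, 11 had a log2 fold change above 0, beside 51.3% of all genes, and the median was 0.10. At an unadjusted p-value under 0.05, 2 passed, both higher, *Tyms* (0.63, standard error 0.17) and *Cdc6* (0.60, standard error 0.26). The summed level of the S phase genes was 2386 to 2773 CPM in control and 2368 to 3060 in *Hif1aCKO* libraries, so the groups overlapped. The 14 regulators of G2/M transcription, 8 above and 6 below 0, had a median of 0.05. Among them, 0 genes had an unadjusted p-value under 0.05 in edgeR's quasi-likelihood test. The smallest p-values among them were those of *Foxm1* (0.77, standard error 0.39) and *Mybl2* (0.68, standard error 0.36), activators of these promoters. Of the 20 axonal and other non-mitotic kinesins, 18 passed the filter on low counts, with 9 above and 9 below 0 and a median of -0.01. Their summed level was 2190 and 2286 CPM in control and 2083, 2010, and 2016 CPM in *Hif1aCKO* libraries, so it was lower in *Hif1aCKO* neurons with no overlap. For *Kif5a*, a neuronal motor of axonal transport, the log2 fold change was -0.47 (standard error 0.17), and it was 0.85 (standard error 0.35) for *Kif13a*, a motor of endosomes. These were the only 2 of the 18 with an unadjusted p-value under 0.05, beside 3.83% of all genes as higher and 3.85% as lower. The most abundant non-mitotic kinesins per length, *Kif5c* and *Kif5b*, had log2 fold changes of -0.22 (standard error 0.12) and 0.08 (standard error 0.13). No test compared one list with another.

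**Figure D5:**
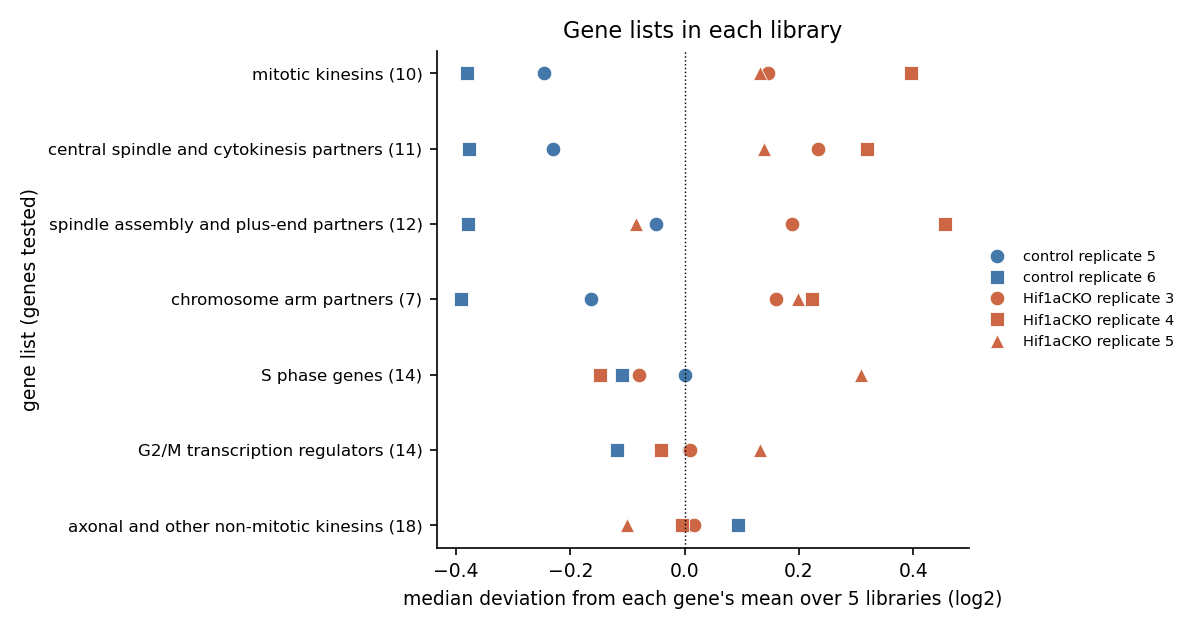
Median deviation from each gene's mean over the 5 libraries (log2) in each library for the gene lists named on the axis, with control libraries in blue and *Hif1aCKO* libraries in red. The groups are apart for the mitotic kinesins, the central spindle partners, and the chromosome arm genes, and they overlap for the other lists drawn. Points that coincide hide each other.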

How the data were processed

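RNA-seq libraries of sorted sympathetic neurons (2 control, 3 *Hif1aCKO*) were analysed. The authors trimmed reads with cutadapt (version 1.18) and Trimmomatic, removed ribosomal and vector sequences with Bowtie (version 1.2.2) and SortMeRNA, mapped them to GRCm38 with STAR (version 2.7.0c), and summed uniquely mapped reads over genes with the defaults of Rsubread, which ignore strand. The deposited values are these raw counts, with no normalization, so reads shared with the pseudogenes *Kif4-ps* and *Kif22-ps* may be lost. Names, places, and exonic lengths were taken from GENCODE M21 on GRCm38 (20195 of the 20224 identifiers matched), whereas the study used release M8.

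The quasi-likelihood test of edgeR 4.0.16 (R 4.3.3) was run on TMM-normalized counts of the 15032 genes kept by filterByExpr. All 10 members passed the filter, and each had a mean normalized count of at least 50. Normalized counts are counts divided by the total of the genes kept and the TMM factor, then scaled to the mean effective library size. Standard errors were derived from the F statistic, and intervals from its degrees of freedom. The study describes its embryos as littermates but not which libraries share a litter, and p-values measure the spread between these libraries. No pair of libraries was a duplicate. The alternatives were RLE, upper-quartile, or no normalization factors, other filters and thresholds, DESeq2 (version 1.42.0), the likelihood ratio test, limma-voom (version 3.58.1), and leaving out each library. A fit with the *Xist* split as a term was added after seeing the data. The members, gene lists, and tests were chosen with earlier results of these data known. Every member was named, with the 2 genes of the smallest p-value in each other list, the 2 most abundant non-mitotic kinesins, and the 5 nearest profiles, of which 1 is not reported here. *Cdc23*, *Pdzd11*, *Racgap1*, and the cell type markers given with values were named after their values were seen. Tests were tried on simulated data. Python 3.11.15 with pandas 2.3.3 and matplotlib 3.10.9 served for tables and plots.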

Additional observations from a re-analysis of the deposited data

How the results depend on the processing

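Every member kept a log2 fold change above 0 under all 14 alternatives run for it, and no direction was reversed. The quasi-likelihood test of edgeR called 0 members and DESeq2 called 2, also at an adjusted p-value under 0.055, and the likelihood ratio test called 1. Over all genes these tools called 0, 60 (68 at the wider threshold), and 40. Leaving out each library in turn gave 0 to 4 called genes, the 4 without control replicate 5, and 0 called members. The number of members at an unadjusted p-value under 0.05 was 2 to 6 when a library was left out, 2 without control replicate 6 and 6 without *Hif1aCKO* replicate 3. The cause of these differences was not tested. A fit with 1 control library assumes that it varies like the other group. Under the other normalizations, filters, and limma-voom the number was 5 or 6, and with the *Xist* split as a term it was 5. The median of the members stayed between 0.44 and 0.67. No paired analysis was possible because the study does not describe which libraries share a litter. With 2 control libraries, 1 library can move a fold change widely, and *Kif18b* is limited by its depth.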

Other observations

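Ratios of pairs of genes within a library do not depend on the normalization between libraries. Their size does depend on the exonic lengths used, which for *Kif20a* and *Kif4* include bases shared with other genes. The pairs were chosen by role after the values were seen, and no test was run on them. The ratio of *Kif23* to *Racgap1*, the other subunit of centralspindlin, was 0.29 and 0.27 per exonic length in the control libraries, against 0.40, 0.46, and 0.54 in the *Hif1aCKO* libraries. For *Racgap1* itself the log2 fold change was 0.33 (standard error 0.19), against 1.04 for *Kif23*. The ratio of *Kif23* to *Kif20a* was 0.20 and 0.13 in the control libraries, against 0.29, 0.25, and 0.27 in the *Hif1aCKO* libraries, again with no overlap between groups. The ratio of *Kif20b* to *Kif20a* was 0.24 and 0.30 in control and 0.33 to 0.40 in *Hif1aCKO* libraries. For *Kif15* and *Kif11*, the ratio was 0.15 in both control libraries, 0.16 and 0.17 in *Hif1aCKO* replicates 3 and 4, and 0.32 in *Hif1aCKO* replicate 5, so that the difference between the means rests on replicate 5. For *Kif22* and *Kif4* the groups overlapped, with 2.51 and 1.74 in control and 2.21 to 3.37 in *Hif1aCKO* libraries.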
